A study of Rattus norvegicus with 29 samples.

Results

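This account covers 10 genes that build and use the regulated secretory pathway of neurons, measured as RNA in rat dorsal root ganglia. They are the granins and granin-like proteins Vgf, Chga, Chgb, Scg2, Scg3 and Scg5, the prohormone convertases Pcsk1 and Pcsk2, and the trimming and amidating enzymes Cpe and Pam. They were taken by symbol out of 16238 named genes. Where a gene has several transcripts, the one with the most reads over all libraries stands for it, and each of the 10 had 1 transcript in the files, so the read totals decided nothing. The set was chosen by name with results of these data in view, namely its measured levels in the groups and how they moved with the proportion of reads that fell outside annotated features. That relation is therefore given as a description without a test.

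The ganglia were those of cervical levels C6 to C8 on the affected side of elderly Lister Hooded rats, and each library came from another rat. The first arm had a cortical stroke on 1 side of the brain and neurotrophin-3 (NT3), a growth factor for large sensory neurons, infused under the skin. The second had the same stroke and an infusion of vehicle. The third had no stroke listed; its samples carry the word sham, the series describes naïve rats, and sham is used here. Ganglia were taken at week 11 or week 5, with 5 rats in each group other than sham at week 5, which had 4. Whole ganglia were used, so fewer neurons in a sample and less RNA per neuron cannot be told apart.

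Granins are acidic proteins that aggregate in the trans-Golgi network and help form dense-core vesicles, the carriers of neuropeptides. Inside the vesicle, precursors are cut at pairs of basic residues by the convertases that Pcsk1 and Pcsk2 encode, the basic residues left at the cut end are removed by carboxypeptidase E (Cpe), and a terminal glycine is turned into an amide by Pam. Scg5 encodes a chaperone that the Pcsk2 enzyme needs, and Scg3 encodes a granin that ties other granins to the vesicle membrane. Sensory neurons use this route for calcitonin gene-related peptide and substance P, among others. Vgf and Scg2 are known as genes that neuronal activity and growth factors induce through cAMP response elements in their promoters.

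Promoters of 3 members are shown because their genes behaved differently across rats: Vgf had the widest spread of the 10 genes, Chgb ran opposite to it, and Scg2 shares a promoter element with Vgf but not its course. Each runs from 250 bases before to 50 bases after the annotated start of the gene on the gene's strand, in the GRCr8 build of RefSeq, a later assembly than the one the reads were aligned to. The palindromic cAMP response element TGACGTCA is in capitals. Vgf lies at chr12:25276971-25277270 on the minus strand, Scg2 at chr9:88256817-88257116 on the minus strand and Chgb at chr3:140496462-140496761 on the plus strand.
Vgf: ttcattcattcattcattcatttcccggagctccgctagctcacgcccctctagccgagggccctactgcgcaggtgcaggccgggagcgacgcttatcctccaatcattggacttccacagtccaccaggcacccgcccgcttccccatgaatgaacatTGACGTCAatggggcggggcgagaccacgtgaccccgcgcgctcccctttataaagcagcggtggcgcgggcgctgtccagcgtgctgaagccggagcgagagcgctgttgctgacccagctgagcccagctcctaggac
Scg2: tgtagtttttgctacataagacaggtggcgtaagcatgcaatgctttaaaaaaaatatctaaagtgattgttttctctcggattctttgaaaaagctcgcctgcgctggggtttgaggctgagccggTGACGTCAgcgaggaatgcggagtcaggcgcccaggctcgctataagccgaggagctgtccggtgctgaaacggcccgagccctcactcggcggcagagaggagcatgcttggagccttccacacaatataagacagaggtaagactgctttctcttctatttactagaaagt
Chgb: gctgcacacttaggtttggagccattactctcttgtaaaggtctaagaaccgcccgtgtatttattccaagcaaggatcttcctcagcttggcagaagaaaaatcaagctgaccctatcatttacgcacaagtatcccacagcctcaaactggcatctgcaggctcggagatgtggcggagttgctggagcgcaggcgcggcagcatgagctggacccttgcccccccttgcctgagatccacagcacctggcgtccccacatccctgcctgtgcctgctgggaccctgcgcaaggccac
The full element begins 90 bases before the start in Vgf and 123 bases before it in Scg2. It occurs in 612 of 33469 rat promoters of the same length (1.83%), and in these 2 of the 8 members whose promoter was matched by symbol. The shorter element TGACG, which the full element contains on both strands, was searched on both strands and occurs in 21.2% of all promoters. It was found in 7 of the 8 matched members, Vgf, Scg2, Scg3, Scg5, Pcsk2, Pam and Cpe, and these letters are not in the Chgb window. A match is a description of the letters and says nothing about binding in these ganglia.

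Reads assigned to transcripts numbered 16703574 to 22773108 in 28 libraries and 9555685 in vehicle rat 27 of week 11, in which 37.2% of reads were not uniquely aligned, against 16.3% to 19.3% in the others. Reads outside annotated features made up 38.3% in rat 27, and 25.4% and 27.0% in sham rats 8 and 11 of week 11. This share, used throughout, is of assigned, ambiguous and outside reads together, and leaves out reads not uniquely aligned. Rat 27 had the most of those, and its high rank in the share depends on leaving them out. Sensory neuron markers summed to between 20952.8 and 25169.3 CPM, library-scaled counts per 1e6 reads, over the 29 libraries, with 16 transcripts tested. Markers of sympathetic neurons and chromaffin cells, which also use granins, summed to between 5.4 and 12.9 CPM, with 4 transcripts tested. Macrophage markers were high in rat 27, at 1621.6 CPM against 208.2 to 713.6 CPM in the others. Rat 27 also lay above all others in markers of satellite glia (4332.4 CPM, others up to 3941.3), myelinating Schwann cells (6727.6 CPM, others up to 5974.8) and brain or spinal cord tissue (1369.0 CPM, others up to 1117.8). Its sum of the sympathetic neuron and chromaffin cell markers was the highest too (12.9 CPM, others up to 10.7).

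All 10 genes were measured in every library, with between 352 reads (the lowest Vgf library) and 13234 reads (the highest Scg3 library), and all passed the filter on low counts. CPM values are not divided by transcript length, so levels are compared between samples of a gene and not between genes. Vgf, precursor of several neuropeptides and named for its response to nerve growth factor, was the most variable: it ran between 19.3 CPM in sham rat 54 and 110.3 CPM in sham rat 8, both of week 11. Its standard deviation within groups was 0.62 on the log2 scale, and 5.9% of the 12556 tested transcripts had a larger one. Pcsk1 (0.37) and Chgb (0.33) followed, with 23.3% and 29.1% of tested transcripts above them. Pam (0.08), Cpe (0.10), Pcsk2 (0.11), Scg5 (0.12) and Scg2 (0.12) were steady, against a median of 0.22 over all tested transcripts. In Pam the highest library stood at 1.30 times the lowest, and in Vgf at 5.70 times.

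**Figure D1:**
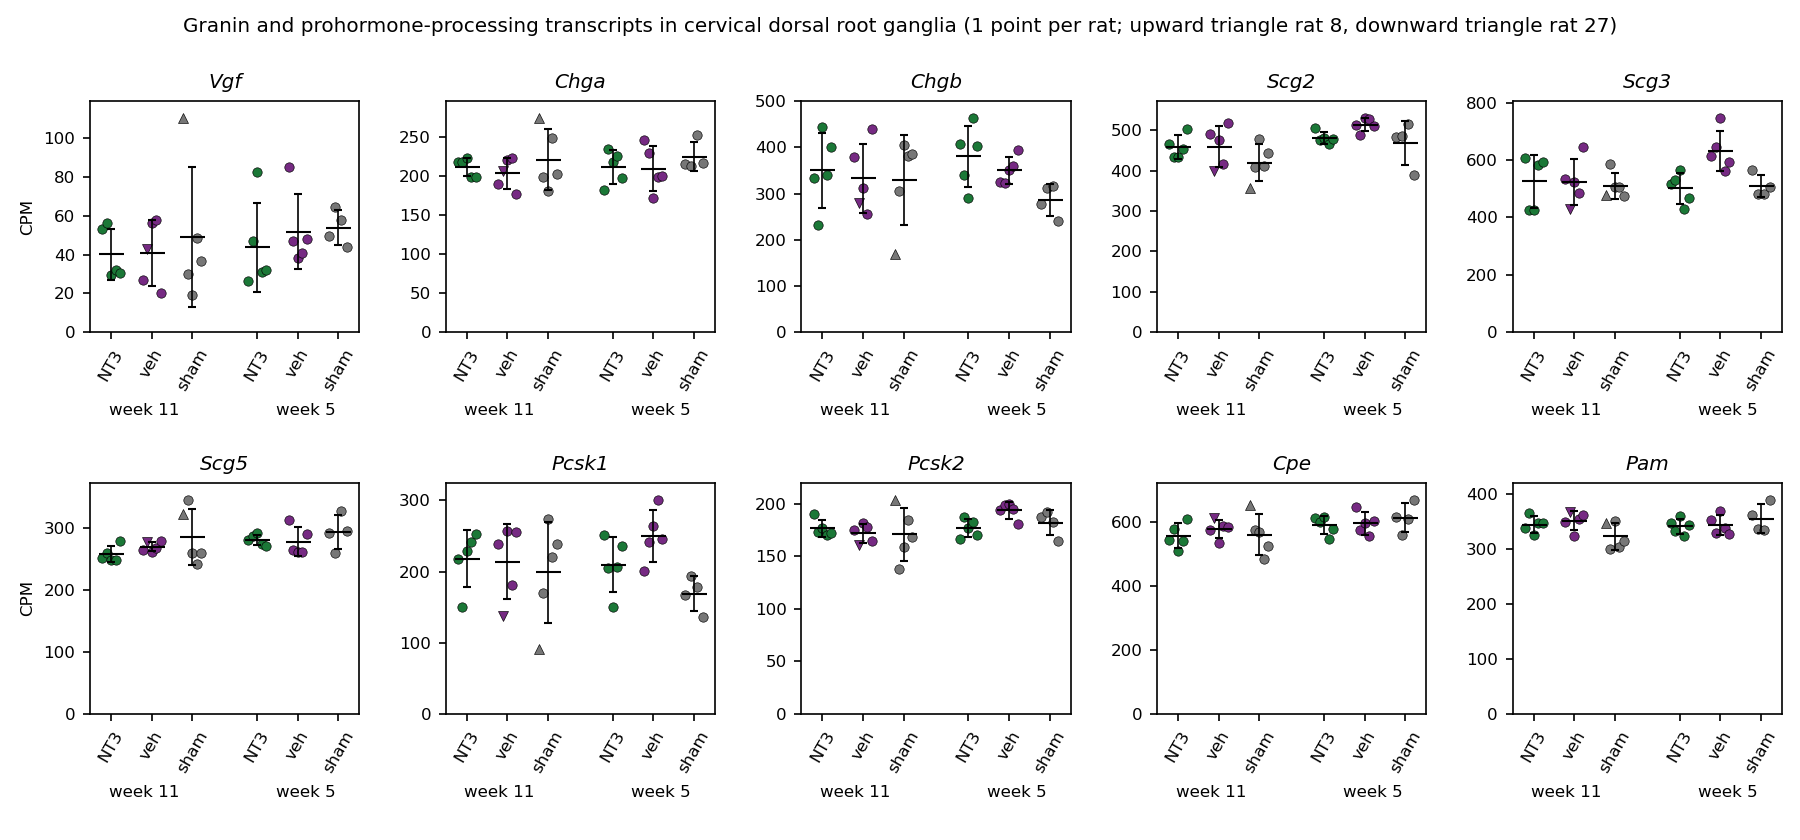
CPM of the 10 genes in each rat, with week 11 left and week 5 right and NT3, vehicle and sham from left to right; each axis starts at 0, bars are mean ± SD, and the triangles are rats 8 and 27. Vgf in sham rat 8 stands at 110.3 CPM, and vehicle rats of week 5 lie above every sham rat of that week in Pcsk1 and Chgb.

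With the 6 groups of each gene ranked by mean CPM, 50 pairs of neighbours were compared, and in 2 of them the gap exceeded the larger SD of the pair. Both stood at the top of a ranking that vehicle at week 5 led: in Scg2 it lay 33.2 CPM above NT3 at week 5, and in Scg3 it lay 106.5 CPM above NT3 at week 11. Vehicle at week 5 also had the highest mean of Pcsk1 and of Pcsk2. Sham at week 5 had the highest mean of Vgf, Chga, Scg5, Cpe and Pam, and NT3 at week 5 that of Chgb. The same rankings over all transcripts were not computed, so nothing particular to the members is read from them.

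None of the 10 genes passed the threshold of adjusted p 0.05 in any of 14 contrasts of edgeR's quasi-likelihood test, fitted and adjusted over all 12556 tested transcripts. The share of all transcripts called was 0% in 13 contrasts and 0.844% in week 11 against week 5 of vehicle rats, which was 1 transcript without rat 27. DESeq2 called no member in any contrast. At an unadjusted p under 0.05, the members counted were 3 in vehicle against sham with weeks averaged (16.9% of all transcripts), 1 at week 11 (9.78%) and 2 at week 5 (8.38%). In NT3 against vehicle there was 1 with weeks averaged (3.32%), 0 at week 11 (1.52%) and 1 at week 5 (4.99%). In NT3 against sham there were 0 with weeks averaged (10.6%), 0 at week 11 (9.12%) and 0 at week 5 (2.40%). Among the fold changes that follow, SE is the standard error of the log2 fold change, worked back from the test. It is the absolute log2 fold change divided by the square root of the F statistic. The NT3 and vehicle contrasts against sham share the sham rats.

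**Figure D2:**
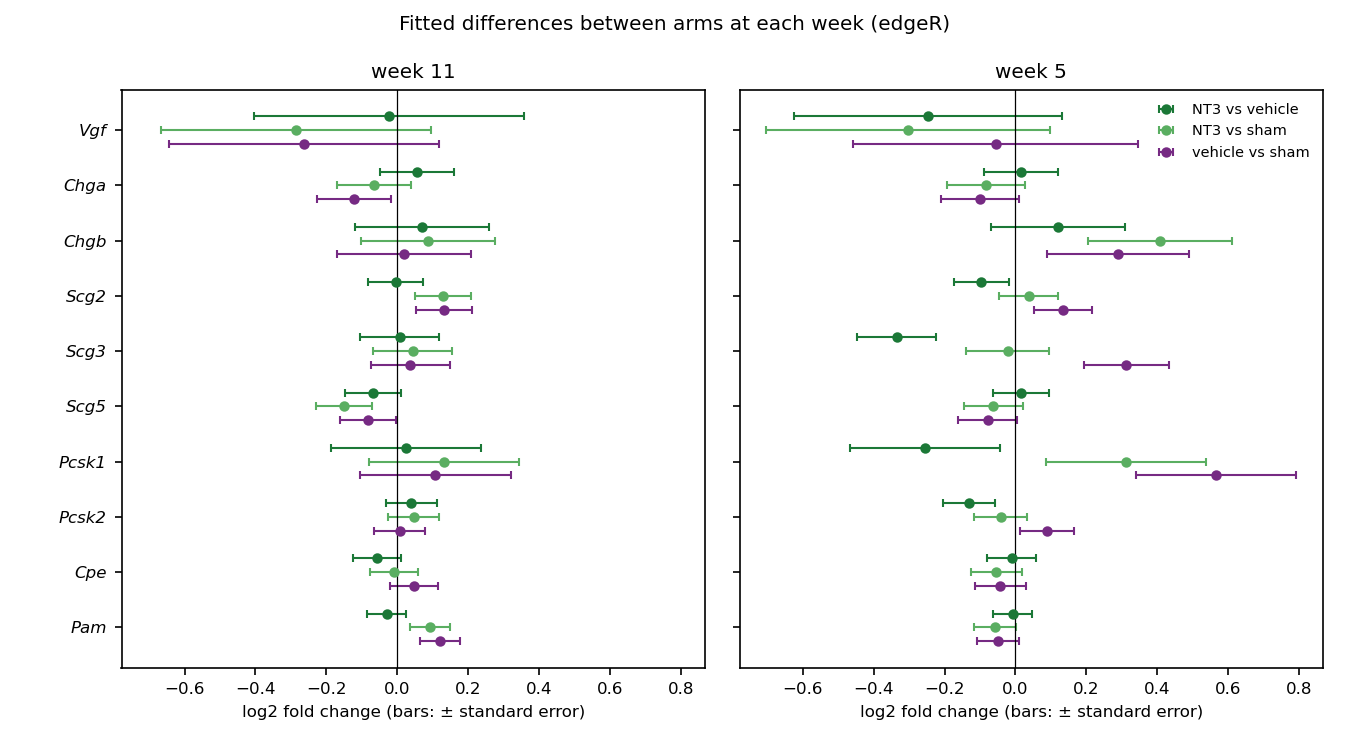
Fitted log2 fold changes (points) with standard errors (bars) of the 10 genes between arms, week 11 left and week 5 right. At week 5 Pcsk1 in vehicle against sham is at 0.57, Chgb in NT3 against sham at 0.41 and Scg3 in NT3 against vehicle at -0.34, and at week 11 Vgf has the widest bars.

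Of the convertases, Pcsk1 showed the widest gap between vehicle and sham at week 5. Pcsk1 had 200.4, 242, 264, 301 and 246 CPM in vehicle rats, against 168, 193, 179 and 137 CPM in sham rats. Every vehicle rat lay above every sham rat. In NT3 rats of that week it had 252, 205, 151, 206 and 236 CPM, which overlapped both other groups. The log2 fold change of vehicle against sham was 0.57 (SE 0.23) with an adjusted p of 0.539 by edgeR. Across all alternatives that adjusted p lay between 0.0373 and 0.99, and limma voom with quality weights called it (log2 fold change 0.61) along with 8.59% of all transcripts. NT3 against sham was 0.31 (SE 0.23) and NT3 against vehicle -0.26 (SE 0.21). The mean share of reads outside annotated features was 33.0% ± 1.83 in vehicle and 31.2% ± 1.14 in sham at week 5 (SD, n = 5 and 4). With that share as a covariate the vehicle against sham value was 0.38 (SE 0.18). Macrophage markers summed to 208.2 to 296.8 CPM in vehicle rats and 317.2 to 513.6 CPM in sham rats, with all 15 tested transcripts lower in vehicle, and fibroblast markers to 1227.9 to 1517.2 CPM in vehicle and 1569.6 to 2114.0 CPM in sham, with all 10 lower. Sensory neuron markers overlapped, at 22595.1 to 24834.4 CPM in vehicle and 21120.4 to 24593.8 CPM in sham. The part of these markers in the Pcsk1 difference was not tested.

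At week 11 the groups overlapped widely. Pcsk1 had 218, 149.8, 228, 242 and 253 CPM in NT3 rats, 238, 138, 257, 182 and 256 CPM in vehicle rats, and 91.0, 170.3, 274, 221 and 238 CPM in sham rats. The lowest vehicle value was that of rat 27 and the lowest sham value that of rat 8. Vehicle against sham was 0.11 (SE 0.21), and it became -0.08 without rat 8. The difference between the weeks was -0.46 (SE 0.31, adjusted p 0.987), so a change of the vehicle effect between weeks was not shown. With weeks averaged, vehicle against sham was 0.34 (SE 0.16, adjusted p 0.293), NT3 against sham 0.22 (SE 0.16) and NT3 against vehicle -0.12 (SE 0.15). Without rats 8 and 27, NT3 against sham was 0.13 (SE 0.11).

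Pcsk2 differed less. It had 167, 187, 177, 183 and 171 CPM in NT3 rats of week 5, against 194, 199, 199.7, 195 and 180.5 CPM in vehicle rats. Only vehicle rat 82 fell within the NT3 range, and the log2 fold change was -0.13 (SE 0.07, adjusted p 1.00 by edgeR). At week 11 Pcsk2 averaged 177 ± 8.1 CPM in NT3, 172 ± 8.86 CPM in vehicle and 171 ± 25.0 CPM in sham (SD, n = 5 each). Scg5, which encodes the chaperone of the Pcsk2 enzyme, averaged 257 ± 13.1 CPM in NT3, 269 ± 7.48 CPM in vehicle and 285 ± 45.1 CPM in sham at week 11. In NT3 against sham it was -0.15 (SE 0.08) there, which became 0.03 without rats 8, 11 and 27, and in NT3 against vehicle -0.07 (SE 0.08). With weeks averaged Scg5 was -0.11 (SE 0.06) in NT3 against sham and -0.08 (SE 0.06) in vehicle against sham. Without rats 8, 11 and 27 these were -0.008 (SE 0.04) and 0.005 (SE 0.04).

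Among the granins, Scg3 had the lowest unadjusted p of the members in NT3 against vehicle. At week 5 Scg3 had 516, 529, 567, 429 and 467 CPM in NT3 rats, 614, 645, 747, 563 and 594 CPM in vehicle rats, and 566, 483, 483 and 506 CPM in sham rats. Vehicle rats were high, NT3 and sham rats overlapped, and a single rat of each lay just above the lowest vehicle rat. NT3 against vehicle was -0.34 (SE 0.11, adjusted p 0.716 by edgeR), and vehicle against sham was 0.31 (SE 0.12, adjusted p 0.539). These contrasts share the vehicle rats. All 15 macrophage marker transcripts were higher in NT3 than in vehicle rats of week 5 (median log2 fold change 0.57), as were all 10 of fibroblasts (0.48) and 12 of 14 of endothelial cells and pericytes (0.19). Of the sensory neuron markers, 14 of 16 were lower (median -0.09). The part of these markers in the Scg3 value was not tested. At week 11 Scg3 averaged 526 ± 92.8 CPM in NT3, 524 ± 79.5 CPM in vehicle and 510.4 ± 45.2 CPM in sham (SD, n = 5 each). The difference between the weeks of NT3 against vehicle was 0.34 (SE 0.16, adjusted p 1.00), 1 member at an unadjusted p under 0.05 against 3.01% of all transcripts. With weeks averaged, NT3 against vehicle was -0.16 (SE 0.08) and vehicle against sham 0.18 (SE 0.08, adjusted p 0.293).

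Chgb, chromogranin B, had 324, 323, 351, 359 and 394 CPM in vehicle rats of week 5, against 278, 312, 316 and 241 CPM in sham rats. The groups did not overlap, by a margin of a few CPM, and vehicle against sham was 0.29 (SE 0.20, adjusted p 0.554). In NT3 rats of that week it had 406, 339, 290.5, 464 and 402 CPM. That group held both the highest value of all 29 rats (rat 62) and 1 value inside the sham range, and NT3 against sham was 0.41 (SE 0.20, adjusted p 0.810). At week 11 Chgb had 334, 232, 444, 339 and 401 CPM in NT3, 379, 280.5, 313, 257 and 439 CPM in vehicle, and 168, 306, 406, 380.3 and 386 CPM in sham. Sham rat 8 was again the lowest. With weeks averaged, NT3 against sham was 0.25 (SE 0.14), NT3 against vehicle 0.09 (SE 0.13) and vehicle against sham 0.15 (SE 0.14). Without rats 8 and 27, NT3 against sham was 0.16 (SE 0.11) and vehicle against sham 0.094 (SE 0.12). With the read share as a covariate and weeks averaged, NT3 against sham was 0.091, NT3 against vehicle 0.15 and vehicle against sham -0.061.

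Pcsk1 and Chgb were thus 2 of 10 members without overlap between vehicle and sham at week 5, where 3.87% of all transcripts had none and 1.70% lay higher in vehicle. No member was without overlap in the other 8 comparisons of groups. The share of all transcripts without overlap there was 0.255% in vehicle against sham at week 11. For NT3 against vehicle it was 0.287% at week 11 and 1.94% at week 5, and for NT3 against sham 0.398% at week 11 and 1.12% at week 5. For week 11 against week 5 it was 0.972% in NT3, 2.64% in vehicle and 0.494% in sham.

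Scg2, the precursor of secretoneurin, had 513, 489, 531, 529 and 511 CPM in vehicle rats of week 5, against 485, 486, 516 and 388 CPM in sham rats. Sham rat 74 stood well below the other sham rats. With weeks averaged, vehicle against sham was 0.13 (SE 0.06, adjusted p 0.282 by edgeR), the smallest adjusted p of any member in any contrast. Chga, chromogranin A and the precursor of catestatin, averaged 211 ± 11.7 CPM in NT3, 203 ± 19.9 CPM in vehicle and 221 ± 38.7 CPM in sham at week 11 (SD, n = 5 each). At week 5 it averaged 211 ± 21.3, 209 ± 29.1 and 224 ± 18.6 CPM in the same arms (n = 5, 5 and 4). With weeks averaged its vehicle against sham value was -0.11 (SE 0.08).

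Vgf had 53.0, 56.1, 29.2, 32.2 and 30.3 CPM in NT3 rats of week 11, 27.0, 43.0, 56.4, 57.8 and 19.97 CPM in vehicle rats, and 110.3, 30.1, 19.3, 48.6 and 36.6 CPM in sham rats. The sham group thus held both the highest and the lowest of all 29 values. At week 5 it had 26.1, 47.0, 82.4, 30.8 and 31.9 CPM in NT3, 85.2, 46.9, 38.1, 41.0 and 48.0 CPM in vehicle, and 49.6, 64.4, 57.9 and 43.7 CPM in sham. A single rat of the NT3 group and a single rat of the vehicle group stood far above the rest of their group. With weeks averaged, NT3 against sham was -0.29 (SE 0.28), NT3 against vehicle -0.14 (SE 0.27) and vehicle against sham -0.16 (SE 0.28). Vehicle against sham became 0.11 without rat 8, and NT3 against vehicle 0.003 without vehicle rat 1 of week 5. NT3 against sham was -0.026 without rats 8 and 27 and -0.001 with the read share as a covariate, and it ranged from -0.48 to -0.025 with 1 rat left out at a time. At week 5 NT3 against vehicle was -0.25 (SE 0.38), and 0.02 without that rat. At week 11 vehicle against sham was -0.26 (SE 0.38), and 0.28 without rat 8. A difference between arms in Vgf was not detectable at this spread.

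The trimming and amidating enzymes were close to level. Pam had 338, 365, 324, 347 and 347 CPM in NT3 rats of week 11, 349, 367, 323, 354 and 362 CPM in vehicle rats, and 347, 300.0, 351, 303 and 314 CPM in sham rats. Of the 5 sham rats, 3 lay below every rat of the other arms. Vehicle against sham was 0.12 (SE 0.06, adjusted p 0.507 by edgeR), and its difference between the weeks was 0.17 (SE 0.08, adjusted p 0.987), 1 member at an unadjusted p under 0.05 against 3.06% of all transcripts. Cpe averaged 557 ± 38.6 CPM in NT3, 580.2 ± 28.3 CPM in vehicle and 561 ± 62.7 CPM in sham at week 11, and 591 ± 28.8, 596 ± 34.8 and 614 ± 44.8 CPM in the same arms at week 5 (SD, n = 5 each, 4 in sham at week 5). Its log2 fold changes between arms lay within 0.06 of 0 in every contrast.

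Between the weeks, most members were lower at week 11 in vehicle rats: 9 of 10 had a negative log2 fold change, with a median of -0.12 against -0.02 over all tested transcripts. Of all tested transcripts 44.9% had a positive one. Scg3 had 535, 428, 524, 487 and 645 CPM in vehicle rats of week 11, against 614, 645, 747, 563 and 594 CPM at week 5, and its log2 fold change was -0.27 (SE 0.11, adjusted p 0.381 by edgeR). Pcsk2 was -0.17 (SE 0.07) and Scg2 -0.16 (SE 0.08). These 3 had an unadjusted p under 0.05, against 8.82% of all transcripts. Vgf was -0.35 (SE 0.38). In the same contrast all 15 macrophage marker transcripts were higher at week 11, with a median of 1.37, and 15 of 16 sensory neuron markers were lower, with a median of -0.14. All 10 fibroblast markers (median 0.50) and all 14 markers of myelinating Schwann cells (median 0.21) were higher too. Without rat 27 the medians were 1.00 for macrophages, 0.43 for fibroblasts and 0.11 for Schwann cells, of which 10 of 14 were then higher. Of the sensory neuron markers 12 of 16 were then lower, with a median of -0.14. CPM are shares of a library, and the part of these markers in the members' values was not tested. Without rats 8 and 27 the Scg3 value was -0.21 (SE 0.12).

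In sham rats 7 of 10 members were lower at week 11, with a median of -0.06. Over all tested transcripts 61.4% were higher there, with a median of 0.04. Pam was -0.14 (SE 0.06, adjusted p 0.988 by edgeR), the 1 member at an unadjusted p under 0.05 there, against 3.73% of all transcripts. Chgb was 0.20 (SE 0.20) and Pcsk1 0.23 (SE 0.23). Without rats 8 and 27 these were 0.37 (SE 0.17) and 0.41 (SE 0.17), and without rats 8, 11 and 27 they were 0.46 (SE 0.18) and 0.54 (SE 0.18). Limma voom with quality weights called 5 members in this contrast (Chgb, Pcsk1, Pam, Cpe and Scg5), along with 17.6% of all transcripts. In NT3 rats no member had an unadjusted p under 0.05, against 1.58% of all transcripts, and the lowest value was that of Scg5, at -0.13 (SE 0.08).

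The level of several members moved with the share of reads that no annotated feature covers, which in RNA sequencing comes from introns, unannotated exons and other genomic positions. Over the 29 rats, Pearson's r of log2 CPM with that share was 0.65 for Chgb, 0.63 for Pcsk1 and 0.49 for Scg2. It was -0.59 for Chga, -0.56 for Vgf and -0.51 for Scg5. Spearman's rho for the same 6 genes was 0.65, 0.72, 0.48, -0.68, -0.61 and -0.28. For Cpe, Pcsk2, Scg3 and Pam r lay between -0.24 and 0.11. An r over 0.5 was reached by 2 members and by 28.0% of all tested transcripts, and an r under -0.5 by 3 members and 20.9% of transcripts. The members' counts thus lay near the shares over all transcripts, and nothing particular to the members is read from them. All points share their library, and both measures come from the same reads.

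**Figure D3:**
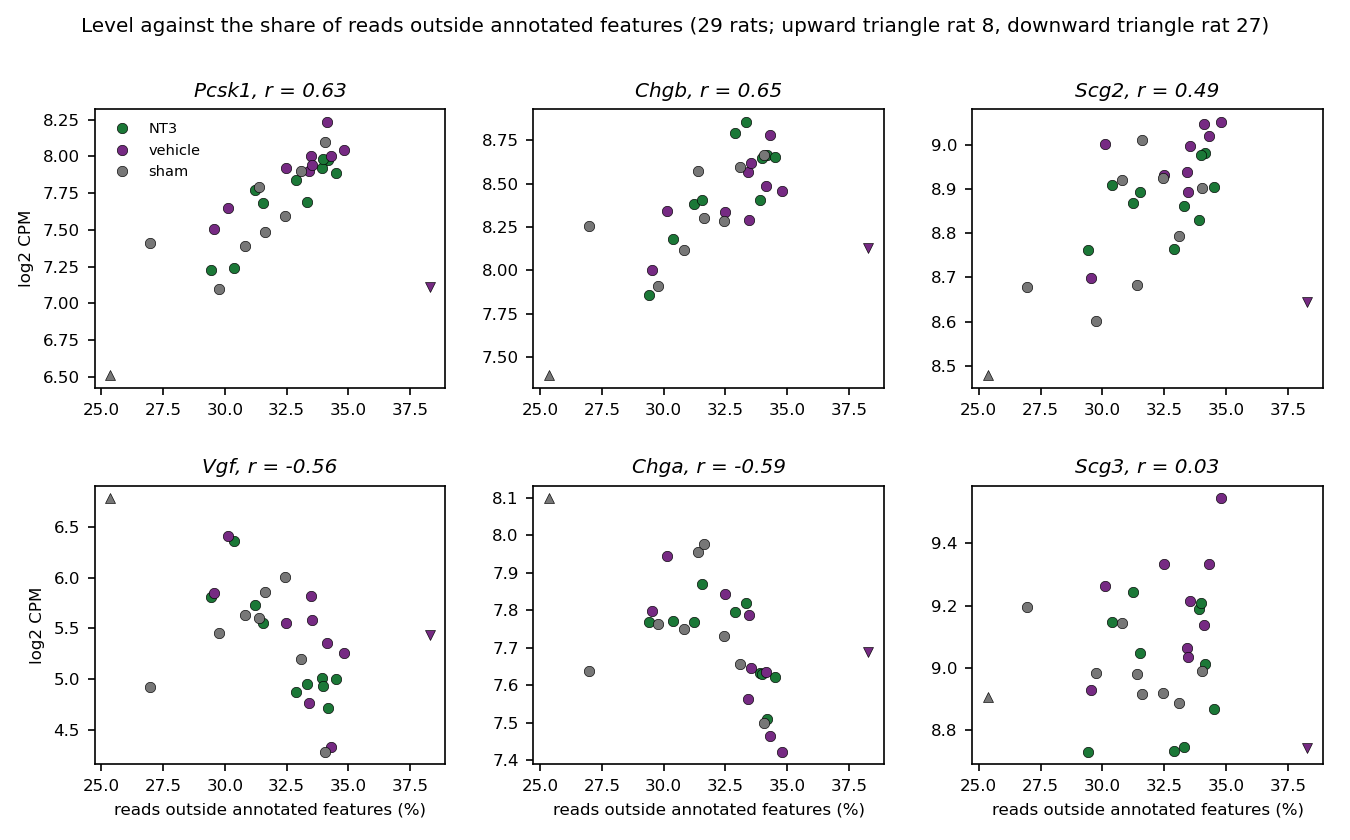
Log2 CPM of 6 of the genes against reads outside annotated features, in percent of assigned, ambiguous and outside reads. Each point is 1 rat, coloured by arm, and Pearson's r is over 29 rats. Pcsk1 and Chgb run upward, with rat 27 far right and low, Vgf and Chga run downward, and Scg3 has an r of 0.03.

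**Figure D4:**
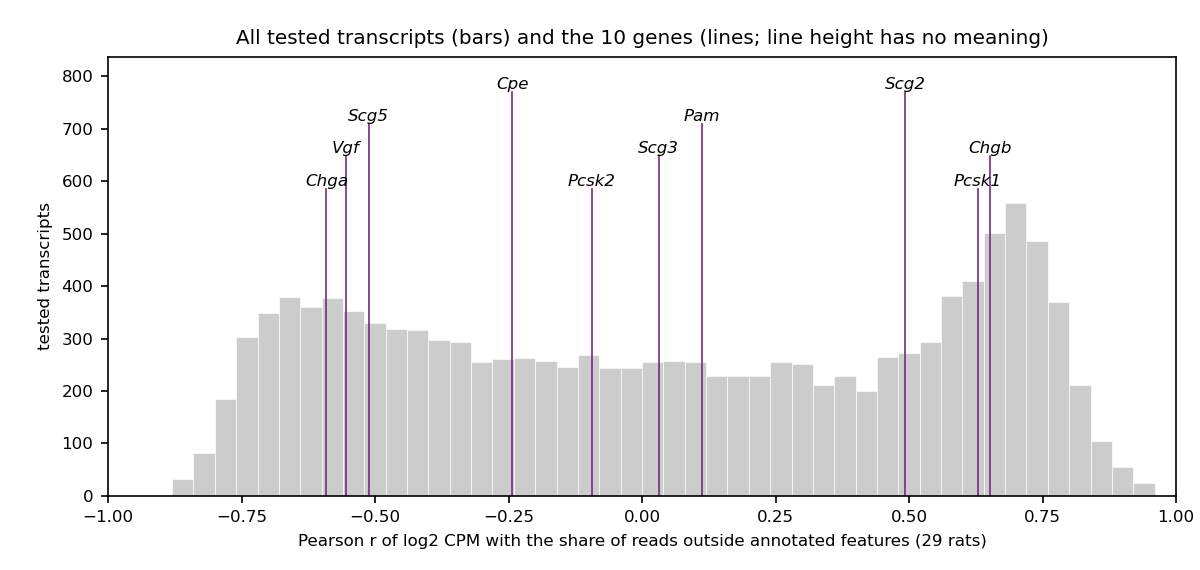
Number of tested transcripts (bars) by Pearson's r of log2 CPM with the same read share over 29 rats, with the 10 genes as vertical lines. The bars have a peak on each side of 0, and the members lie under both peaks and between them.

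Single libraries moved these values. Without rats 8 and 27 the r of Pcsk1 was 0.83, and without rats 8 and 11, the libraries farthest from the median share, it was 0.44. Within arms r was 0.89 in NT3 rats, -0.13 in vehicle rats and 0.87 in sham rats, and 0.92 in vehicle rats without rat 27. Within weeks it was 0.55 at week 11 and 0.86 at week 5. Chgb gave 0.82 in NT3, 0.19 in vehicle (0.74 without rat 27) and 0.82 in sham. Vgf gave -0.89 in NT3, -0.49 in vehicle and -0.51 in sham, and Chga -0.64, -0.55 and -0.50. For Scg5, r became -0.21 without rats 8 and 11, and for Scg2 0.20. At week 5, which holds none of these rats, r was -0.65 for Scg5 and 0.51 for Scg2. After the 6 group means were removed, r was 0.68 for Chgb, 0.62 for Pcsk1, -0.62 for Vgf and -0.56 for Chga.

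Across rats, with group means removed, some pairs of members moved together and others moved apart. Pcsk1 and Chgb had a Pearson's r of 0.86, Pcsk1 and Scg2 0.77, and Chgb and Scg2 0.68. Vgf and Chga had 0.78, and Pcsk2 had 0.59 with Chga and 0.58 with Vgf. Cpe had 0.72 with Scg5 and 0.69 with Pam. Scg5 and Pam had 0.10 with each other. Negative values were -0.77 for Vgf and Chgb, -0.71 for Vgf and Pcsk1 and -0.62 for Pcsk1 and Cpe, while Vgf had 0.24 with Scg5 and Chga 0.23. The convertases themselves, Pcsk1 and Pcsk2, had -0.18, and Pcsk2 and its chaperone gene Scg5 had -0.30. Vgf and Scg2, which share the full promoter element shown above, had -0.48. With group means kept that pair had -0.26, and -0.03 without the 2 libraries farthest from the Vgf median. With group means removed, 8 of 45 pairs had an r over 0.5 (17.8%) and 7 an r under -0.5 (15.6%). Over all pairs of the 12556 tested transcripts these shares were 15.2% and 13.4%, so the members' counts lay near the background and nothing particular to them is read from the counts. With group means kept, r was 0.84 for Pcsk1 and Chgb, 0.72 for Pcsk1 and Scg2 and 0.60 for Chgb and Scg2. Without the 2 libraries farthest from the median of Chgb, Scg2 and Chgb in turn, these were 0.72, 0.53 and 0.40. Leaving out the 2 farthest in Scg5 moved Pcsk2 and Scg5 from -0.19 to 0.14, and Cpe and Scg5 from 0.70 to 0.87.

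With the read share removed as well as the group means, 9 pairs had an r over 0.5 and 6 an r under -0.5. Pcsk1 and Chgb then had 0.77, Pcsk1 and Scg2 0.71, Vgf and Chga 0.67, Cpe and Pam 0.73, and Vgf and Chgb -0.60. These are descriptions over 29 libraries, without a test. The shares over all pairs of transcripts were not computed in this setting, so nothing particular to the members is read from its counts.

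**Figure D5:**
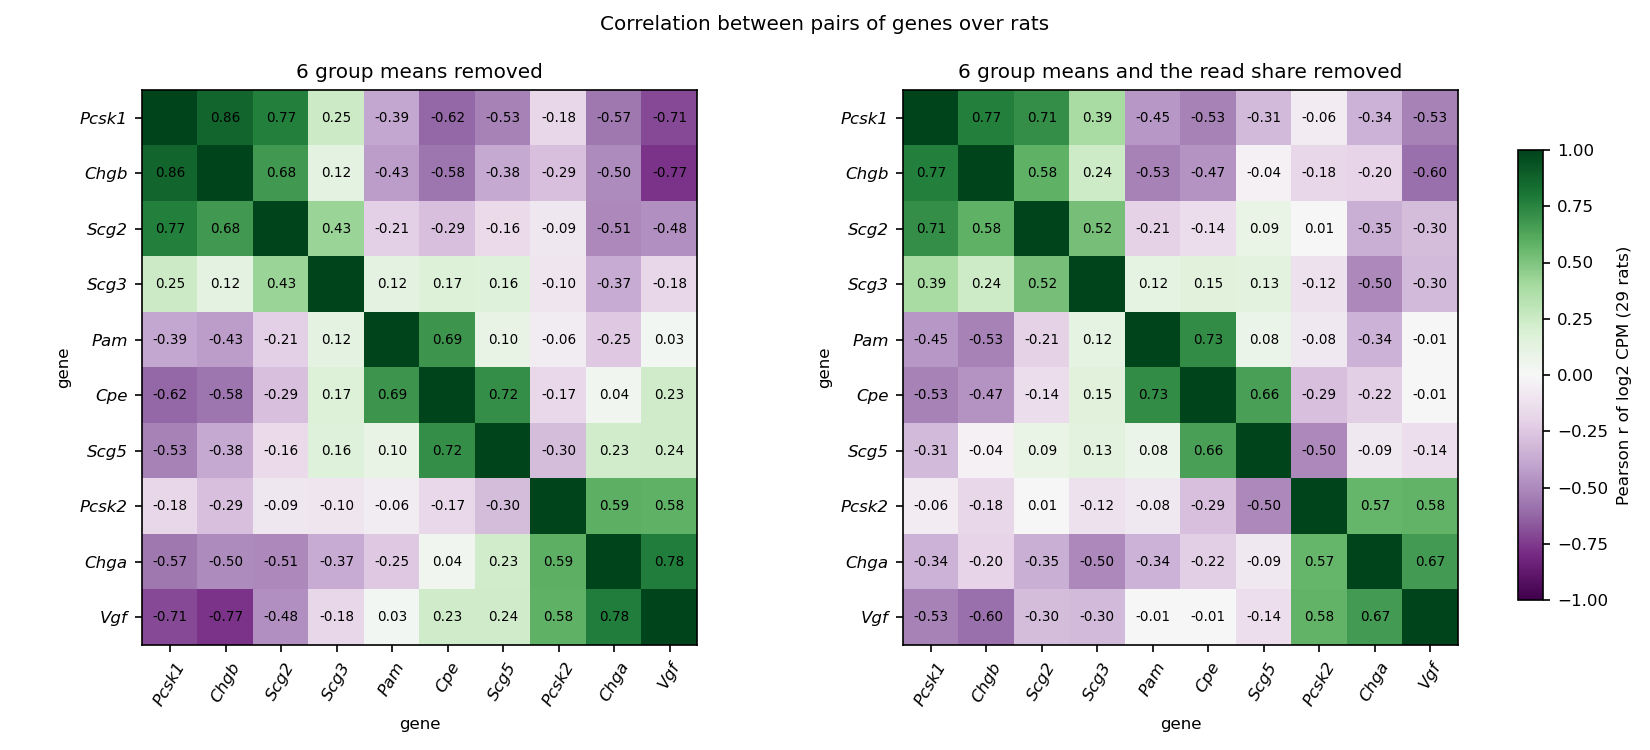
Pearson's r of log2 CPM between pairs of the 10 genes over 29 rats, with the 6 group means removed (left) and with the read share removed too (right); green is positive and purple negative. Pcsk1, Chgb and Scg2 are positive with one another and negative with Vgf, and Cpe is positive with both Scg5 and Pam, which have 0.10 with each other on the left.

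The genes whose levels ran most like each member were ranked by the same r among 8436 named transcripts of at least 10 CPM. For Vgf they were Nptx2 (r = 0.97), a neuronal pentraxin of synapses that activity induces, Samd14 (0.96) and Cacnb3 (0.95), a calcium channel subunit. For Chga they were Podxl2, Jph3 and Eml2, each at 0.94. For Pcsk1 they were Zfp84, Cert1 and Dhx36, each at 0.96, and for Chgb Plcb4 (0.94), Ufl1 (0.93) and Gpcpd1 (0.93). For Scg2 they were Brox (0.93), Elovl4 (0.93) and Rnf103 (0.92), and for Scg5 Psmb1 (0.94), a proteasome subunit, Ndufb9 (0.93), a subunit of respiratory complex I, and Arpc3 (0.93). The read share was not removed for this ranking. With that share, r was -0.58 for Nptx2, -0.74 for Podxl2 and 0.745 for Zfp84, the first of their lists. It was 0.72 for Plcb4, 0.55 for Brox and -0.56 for Psmb1. Shared regulation was not tested.

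For Cpe the list was Rpn1 (0.93), a subunit of the oligosaccharyl transferase, Ei24 (0.91) and Prnp (0.91), for Pcsk2 Spock2 (0.89), Mfhas1 (0.89) and Scamp5 (0.88), and for Pam Wdr82 (0.87), Ist1 (0.85) and Nek9 (0.84). Scg3 had the weakest likeness, to Slc35f5 (0.72), Chfr (0.68) and Acp3 (0.68). With the read share, r was -0.50 for Rpn1, -0.225 for Spock2, -0.13 for Wdr82 and -0.14 for Slc35f5. An r over 0.5 with Scg3 was seen in 1.72% of the candidate transcripts, and with Pam in 3.84%, against 20.6% to 30.8% for Vgf, Chga, Chgb, Scg2, Scg5 and Pcsk1.

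Other genes of the pathway were described from 3 lists. Of 41 genes for dense-core vesicle formation and release, 35 transcripts were tested and none was called in any contrast. In NT3 against vehicle with weeks averaged 10 were higher and 25 lower (median -0.03, against -0.01 over all transcripts), and in vehicle against sham 19 were higher and 16 lower (median 0.02). The smallest unadjusted p were those of vehicle against sham. Of the 35, 5 had an unadjusted p under 0.05 by edgeR there, against 16.9% of all transcripts. Syt1, a calcium sensor of vesicle fusion, averaged 146 ± 28.1 CPM in vehicle and 112 ± 25.3 CPM in sham (SD, n = 10 and 9; log2 fold change 0.36, SE 0.12, adjusted p 0.269 by edgeR). Cadps, which primes dense-core vesicles for release, averaged 436 ± 41.5 CPM in vehicle and 381 ± 48.7 CPM in sham (0.19, SE 0.07, adjusted p 0.269 by edgeR). Of the vesicle GTPases, Rab3c averaged 60.4 ± 17.8 CPM in vehicle and 41.4 ± 15.2 CPM in sham (0.56, SE 0.22, adjusted p 0.270 by edgeR). Rab3b averaged 11.2 ± 2.8 CPM in vehicle and 13.8 ± 2.7 CPM in sham (-0.31, SE 0.11, adjusted p 0.269 by edgeR).

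Of 33 other convertases, trimming enzymes and their inhibitors, 31 transcripts were tested, and 16 were higher and 15 lower in NT3 against vehicle, and 11 higher and 20 lower in vehicle against sham. One was called in 1 contrast: Ctsh, a lysosomal aminopeptidase, averaged 148 ± 20.7 CPM at week 11 and 111 ± 5.5 CPM at week 5 in vehicle rats (SD, n = 5 each; log2 fold change 0.41, SE 0.10, adjusted p 0.042 by edgeR). Without rat 27 its log2 fold change was 0.33 (SE 0.10, adjusted p 0.238), and across all alternatives its adjusted p lay between 0.018 and 0.238. The adjusted p was also above the threshold without any 1 of the vehicle rats of week 5 and without vehicle rat 50 of week 11. In the same contrast 11 of 15 macrophage markers were called, and 0 were called without rat 27, 0 without vehicle rat 1 of week 5 and 0 with the contrast's own groups alone, where all 15 were still higher. Without rats 8 and 27, 5 were called, and without rats 8, 11 and 27, 3 were called. The remaining alternatives called 7 to 12. The calls over all transcripts numbered 106, and 1 without rat 27.

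Of 42 genes for peptide precursors, the substrates of these enzymes, 29 transcripts were tested and none was called in any contrast. In NT3 against sham 13 were higher and 16 lower (median -0.09), and in vehicle against sham 12 were higher and 17 lower (median -0.09). In each of these contrasts 3 of the 29 had an unadjusted p under 0.05 by edgeR, against 10.6% and 16.9% of all transcripts. Calcb, which encodes a form of calcitonin gene-related peptide, averaged 159 ± 16.9 CPM in NT3 and 188 ± 33.0 CPM in sham (SD, n = 10 and 9; log2 fold change -0.25, SE 0.08, adjusted p 0.461 by edgeR). Sst, the somatostatin precursor, averaged 44.7 ± 8.0 CPM in NT3 and 57.7 ± 19.4 CPM in sham. Sham rat 8 had the highest sum of this list, 804.7 CPM, against a median of 600.2 CPM in the libraries other than rat 27. That rat also had the highest sums of the vesicle list (7159.7 CPM) and the enzyme list (5198.9 CPM). The part of rat 8 in the Calcb and Sst values was not tested. Gal, the galanin precursor, averaged 9.5 ± 2.5 CPM in vehicle and 11.4 ± 2.2 CPM in sham, and Adm, the adrenomedullin precursor, 3.8 ± 0.6 CPM in NT3 and 3.2 ± 1.1 CPM in vehicle. Tac1, the substance P precursor, Npy and Igf1 were listed at 0 in every library, as was Col1a2, a collagen gene that ganglia use, so a 0 in these files is no measure of absence.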

How the data were processed

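Libraries were stranded and made from poly-A RNA, per the labels' protocols. The submitters' processing notes name the builds rn6 and Rnor_6.0 and the tools HTSeq, Picard, TopHat2 and bcl2fastq 1.8.4, without settings. The deposited files hold whole read counts per RefSeq transcript, without normalization, for 18092 transcripts and 29 libraries, and a smaller table of 15308 transcripts with identical values. Reads shared by transcripts are counted as ambiguous, and each member had 1 transcript. In the later assembly used for names, Pcsk2, Cpe and Pam each overlap another annotated locus, and the strand setting of the counting is not given in the sources used here, so their counts could hold reads of those loci.

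Names came from a RefSeq table of a later assembly. Counts were analysed with edgeR 4.0.16 in R 4.3.3: filterByExpr (minimum count 10, total 15) left 12556 transcripts, TMM factors lay between 0.974 and 1.061, and 6 group means without covariates were fitted to all libraries for 14 contrasts, two-sided, with Benjamini-Hochberg adjustment over all transcripts. Log2 CPM used a prior count of 2. The pipeline was tested on simulated counts for vehicle against sham with weeks averaged, with the same spread parameter for every transcript. The relation of transcripts to the read share was not simulated. Alternatives used DESeq2 1.42.0, limma 3.58.1 (voom with quality weights), DESeq2 size factors, no filter, only the contrast's groups, the read share as a covariate, fewer libraries and the smaller table.

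The members and the gene lists were chosen with earlier results of these data known. Genes named besides the members are the 3 most alike to each member and, per list, those called or else the 4 with the smallest p in the contrasts with weeks averaged. The labels name rats, not litters or batches, so p-values measure the spread between rats.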

Additional observations from a re-analysis of the deposited data

Results flagged for a closer look

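In 3 of 60 sets of a member and a group, 1 rat stood apart from its group by Dixon's test at the 95% level, where chance gives about 1 in 20. Vgf in vehicle rat 1 of week 5 was 85.2 CPM, against 38.1 to 48.0 CPM in the other vehicle rats of that week. Chga in sham rat 64 of week 5 was 252 CPM, against 212 to 217 CPM in the others. Pcsk2 in vehicle rat 82 of week 5 was 180.5 CPM, against 194 to 199.7 CPM in the others.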

How the results depend on the processing

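No paired analysis was possible because each rat gave 1 library and rat numbers are not shared between groups. Each count of calls and 40 member fold changes were recomputed. Of 360 member values under settings other than leaving out 1 rat, 12 turned sign and 4 passed the threshold, all 4 with voom; the cause was not tested. Vehicle against sham with weeks averaged turned to -0.061 in Chgb and 0.31 in Vgf with the read share as a covariate, 0.10 in Vgf without rats 8 and 27, and 0.079 in Vgf and 0.005 in Scg5 without rats 8, 11 and 27 (a setting added after seeing the data). At week 11 it turned to -0.069 (voom), -0.144 (covariate) and -0.066 (without the 3 rats) in Pcsk1, and to 0.47, 0.25 and 0.22 in Vgf with the covariate, without 2 and without 3 rats. NT3 against sham at week 11 turned to 0.034 in Scg5 without 3 rats. Leaving out 1 rat at a time, vehicle against sham ranged from -0.30 to 0.11 (averaged) and -0.48 to 0.28 (week 11) in Vgf and from -0.075 to 0.26 in Pcsk1 (week 11), and NT3 against vehicle in Vgf from -0.31 to 0.003 (averaged) and -0.61 to 0.02 (week 5). The r of Pcsk2 with the read share turned from -0.09 to 0.24 without rats 8 and 27.

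Counts of called transcripts that edgeR gave as 0 became, with voom, 36 (vehicle against sham averaged), 1079 (week 5), 2 (week 11), 36 (NT3 against vehicle, week 5), 4 (NT3 against sham, week 11), 2209 (sham over time) and 1 (difference between weeks of vehicle against sham). DESeq2 gave 4, 10, 1 and 1 for vehicle against sham averaged and at week 5, sham over time and that difference, and the fit of only the contrast's groups gave 1 for vehicle against sham at week 5. The 106 calls of vehicle over time became 201 with DESeq2, 0 with only its groups, 24 without rats 8 and 27, 11 without 3 rats, and 1 to 214 leaving out 1 rat (1 without rat 27 and 1 without rat 1). Members had 1 transcript each, so summing transcripts changed nothing. With 4 or 5 rats a group, standard errors of 0.38 to 0.40 limit Vgf, and 0.06 Pam.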
